A study of Rattus norvegicus with 24 samples.

Results

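The breakdown of glucose to pyruvate and lactate, and the storage of glucose as glycogen, are described here through 35 genes, chosen by name, whose level was measured in the tibialis anterior (TA) of aged rats. All 35 of 35 were found among the 13458 gene symbols of the table. They fall into 6 roles, namely glycogen breakdown (4 genes), glycogen synthesis (7), glucose entry (4), the upper part of glycolysis with its control enzymes (8), the lower part (8) and the fate of pyruvate and reducing equivalents (4).

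The animals were male Fischer 344 rats aged 23 ± 1 months, and RNA was sequenced from both hind limbs of 12 of them. In 9 animals an osmotic pump delivered tetrodotoxin (TTX), a blocker of voltage-gated sodium channels, to the left common peroneal nerve, which silences the TA, the muscle that lifts the foot. The first 3 animals gave their left limb when TTX had run for 6 to 7 days (atrophy), 3 others after a further 9 days without it (recovery) and 3 more after that interval and a second TTX period of 5 to 6 days (repeated atrophy). Control is the right limb of these 9 animals, which received no TTX and belonged to the same treated animals, and 3 sham-operated animals, 1 per time point, gave a left and a right limb each. All groups share the age, sex and strain, and every group other than control holds 3 limbs.

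Skeletal muscle stores glycogen and burns it without oxygen when it contracts hard. Fast fibres, which make up most of the TA, rely on this route more than slow fibres do, and they carry muscle forms of several enzymes that other tissues replace with broadly expressed forms. Glycogen phosphorylase frees glucose units from glycogen, phosphofructokinase sets the pace of the upper pathway, and lactate dehydrogenase turns the final product, pyruvate, into lactate.

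Levels are CPM, that is, reads of a gene scaled so that the values of a library sum to 1000000. Differences are log2 fold changes (FC) of CPM + 1 from limma, a test fitted over 14031 rows at once, and a gene passed when its FC reached 1.2 and its p, adjusted by Benjamini-Hochberg over those rows, did not exceed 0.05. A fold on this scale understates the change of a gene near 1 CPM. Inferred depth ranged from 18.9 to 30.9 M reads (M, 1000000), and 2 libraries stood apart. The left limb of atrophy animal 2 resembled its own right limb, and the right limb of atrophy animal 3 had the lowest control value of several genes described here. A shift of all genes also matters, since the median row did not sit at 0. Its log2 FC was 0.22 for atrophy, 0.02 for recovery and 0.20 for repeated atrophy, each against control, and lay within 0.02 of 0 in all 3 comparisons after libraries had been rescaled with a trimmed mean. Values named as rescaled below include this step.

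In control limbs the 35 genes took 8.31 ± 1.26% of all CPM (SD, n = 9), with a range from 5.71% to 9.54%. The left limbs of the atrophy animals gave 2.95%, 6.99% and 3.19%, and those of the repeated atrophy animals gave 3.84%, 3.03% and 3.22%. Recovery limbs gave 8.58%, 8.54% and 6.55%, within the range of control but each below the own right limb at 9.47%, 9.54% and 9.45%. All 3 repeated atrophy limbs therefore lay below every control limb, whereas atrophy animal 2 lay inside the control range and beside its own right limb at 7.03%. In the sham animals the left limbs gave 7.03%, 8.14% and 5.59% and the right limbs 7.06%, 8.77% and 5.87%. These shares are a description without a test. In a piece of whole muscle, fewer fibres of a type and less RNA per fibre cannot be told apart.

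**Figure D1:**
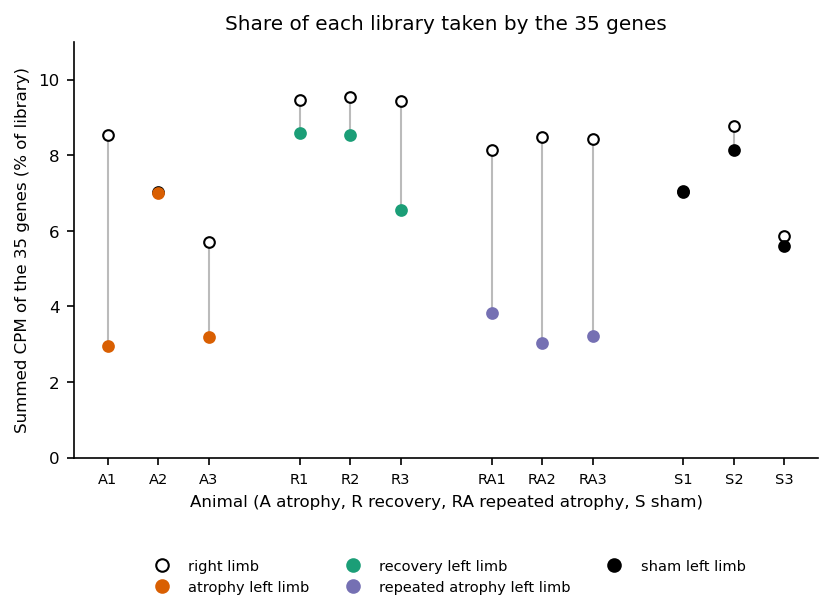
Summed CPM of the 35 genes as a percent of the library (vertical axis) for both limbs of each of the 12 animals (horizontal axis), with open circles for right limbs, filled circles for left limbs and a line joining the limbs of an animal. Repeated atrophy left limbs sit between 3.03% and 3.84%, while the left limb of atrophy animal 2 sits at 6.99% beside its right limb.

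Compared per kilobase of transcript, the levels in control spanned a wide range. Gapdh was highest at 14007 CPM per kilobase, followed by Aldoa (12833), Eno3 (6276), Pygm (4786) and Pgam2 (3337). The lowest were Pfkl (2.74), Hk1 (2.68), Slc2a1 (1.61) and Pfkp (1.02), which are forms common to many tissues. The Gapdh row with the highest level is a copy without introns on chr5:111671880-111673150 (rn7), while the row on chr4:157962358-157966231 held 988 to 1572 CPM in control. Reads from near-identical Gapdh copies could have been split between these rows, so its values are uncertain.

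Repeated atrophy brought the broadest change. Of the 35 genes, 22 fell and 7 rose against control, where 6.24% of all 14031 rows fell and 28.1% rose. The median log2 FC of the 35 was −0.91 against 0.20 for all rows. After rescaling, 24 fell (12.0% of all rows) and 2 rose (13.2%), and all 22 falls were among the 24. When the animal entered the fit as a block, so that limbs of the same rat were compared, 19 fell (5.66%) and 6 rose (21.5%), all of them among the 22 and the 7, while Pgm1, Ugp2, Gpd2 and Gyg1 no longer passed. In 19 genes all 3 repeated atrophy limbs lay below all 9 control limbs (3.87% of all rows) and in 4 they lay above them (16.5%). Within animals, 23 genes were lower on the left in 3 of 3 (13.5%) and 8 were higher (40.6%).

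**Figure D2:**
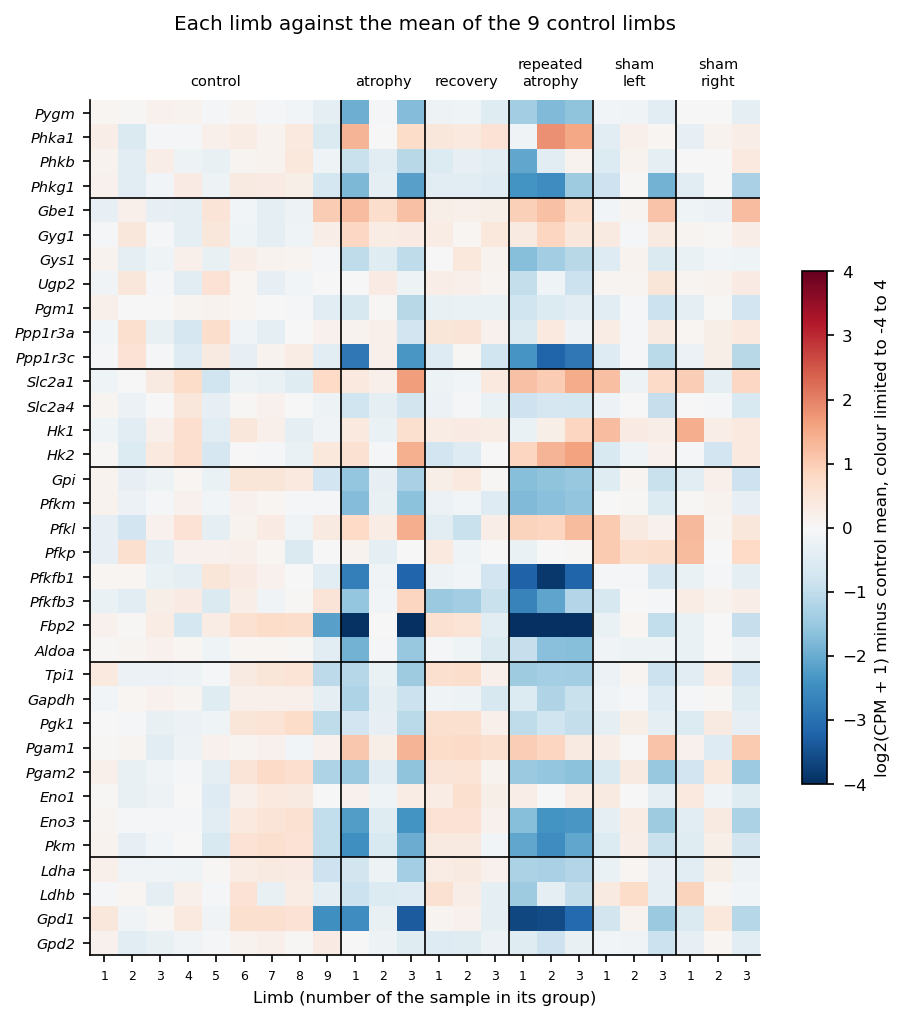
Heat map of log2(CPM + 1) minus the mean of the 9 control limbs for the 35 genes (rows, divided by role) in the 24 limbs (columns, divided by group), with blue below and red above control and colours limited to −4 and 4. The 3 repeated atrophy limbs and atrophy limbs 1 and 3 are blue in most rows, and atrophy limb 2 is pale, like control.

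Glycogen breakdown starts with Pygm, muscle glycogen phosphorylase (chr1:203690550-203705370, rn7). It had 10613, 13903 and 15365 CPM as the lowest, median and highest control limb, and 5108, 3998 and 4412 CPM after repeated atrophy. The groups did not overlap, and Pygm fell 3.02-fold (log2 FC −1.59, SE 0.36, adjusted p = 0.0025). After atrophy its limbs had 3468, 13203 and 4082 CPM, so animals 1 and 3 were low and animal 2 was not.

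Phosphorylase kinase, which switches phosphorylase on, did not move as a unit. Phkg1, the catalytic subunit of muscle, had 84.7, 156 and 178 CPM in control (lowest, median, highest) and 25.1, 23.7 and 50.5 CPM after repeated atrophy, a fall of 4.30-fold (log2 FC −2.10, SE 0.31, adjusted p = 0.00015). The regulatory subunit gene Phka1 went the other way, from a control median of 366 CPM to 301, 1194 and 974 CPM (log2 FC 1.08, adjusted p = 0.018). Its limb 1 lay inside the control range, and the rise did not pass after rescaling (0.70, adjusted p = 0.12) but did in the blocked fit (1.31, adjusted p = 0.013). The other regulatory subunit gene, Phkb, had 18.3, 60.3 and 88.4 CPM against 59.6 to 109.8 CPM in control and did not pass (−0.79, adjusted p = 0.052), though it did after rescaling (−1.17, adjusted p = 0.011).

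Of the 7 glycogen synthesis genes, 4 fell and 2 rose after repeated atrophy (6.24% and 28.1% of all rows). Gys1, muscle glycogen synthase, had 405, 569 and 639 CPM in control and 160.1, 202 and 242 CPM after repeated atrophy, with no overlap (log2 FC −1.40, SE 0.17, adjusted p = 5.2e-05). Ppp1r3c, a subunit that brings protein phosphatase to glycogen and so favours storage, had 468, 654 and 1009 CPM in control and 129, 72.3 and 91.4 CPM after repeated atrophy, a 7.02-fold fall (−2.81, SE 0.43, adjusted p = 0.00019). Its relative Ppp1r3a, the glycogen-targeting subunit of striated muscle, stayed between 226 and 444 CPM against 211 to 551 CPM in control (−0.12, 95% interval from −0.70 to 0.45). Of these subunit genes, the first passed the test and the second did not, and the difference between them was not tested.

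The steps that prime and branch glycogen had higher values. Gbe1, the branching enzyme, had 271, 318 and 225 CPM after repeated atrophy against a control median of 121 CPM (0.94, adjusted p = 0.0060), although the right limb of atrophy animal 3 reached 281 CPM. Gyg1, glycogenin, which starts each glycogen particle, had 451, 643 and 485 CPM against a median of 336 CPM (0.56, adjusted p = 0.033). After rescaling neither passed, with log2 FC of 0.56 and 0.18. Ugp2 and Pgm1, which interconvert glucose phosphates and UDP-glucose on the way to glycogen, fell modestly (−0.66 and −0.59, adjusted p = 0.021 and 0.034).

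Of the 4 glucose entry genes, 2 rose and 1 fell after repeated atrophy (28.1% and 6.24% of all rows). These rises were the 2 among the 35 genes that also passed after rescaling, where 13.2% of all rows rose. Hk2, the insulin-responsive hexokinase of muscle, had 55.1, 90.2 and 143 CPM in control and 163, 229 and 272 CPM after repeated atrophy, so the groups did not overlap. It rose 2.42-fold (log2 FC 1.27, SE 0.30, adjusted p = 0.0033), 1.86-fold after rescaling (adjusted p = 0.020), and 2.14-fold in the blocked fit (adjusted p = 0.0056). Hk1, the broadly expressed hexokinase, had 7.70, 11.4 and 18.02 CPM against 6.62 to 15.5 CPM in control and did not pass (0.29, adjusted p = 0.45).

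The glucose transporters parted as well. Slc2a4 (GLUT4), which insulin and contraction move to the fibre surface, had 423, 540.0 and 729.7 CPM in control and 304, 334 and 329.9 CPM after repeated atrophy (−0.73, SE 0.15, adjusted p = 0.0015). Slc2a1 (GLUT1), a transporter present in most cells, had 1.80, 3.27 and 7.42 CPM in control and 9.80, 8.65 and 12.405 CPM after repeated atrophy (1.21, SE 0.33, adjusted p = 0.0092), which also passed after rescaling (0.89, adjusted p = 0.043). Neither transporter's limbs overlapped with control, but the left limb of sham animal 1 held 10.1 CPM of Slc2a1, more than any control limb. Which cells of the muscle carried this low transcript was not tested.

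In the upper part of glycolysis, 6 of 8 genes fell and 1 rose after repeated atrophy (6.24% and 28.1% of all rows). Fbp2, muscle fructose bisphosphatase, which runs the phosphofructokinase step backwards (chr17:2236336-2253701, rn7), had 17.6, 101 and 139 CPM in control and 3.06, 2.31 and 2.90 CPM after repeated atrophy. This was the largest fall among the 35 genes in this comparison, 22.5-fold (log2 FC −4.49, SE 0.70, adjusted p = 0.00022). Pfkfb1 and Pfkfb3, which encode enzymes that make and remove fructose 2,6-bisphosphate, an activator of phosphofructokinase, also fell. Pfkfb1 went from a control median of 64.1 CPM, with a lowest limb of 44.4 CPM, to 5.55, 3.29 and 5.76 CPM (−3.44, SE 0.41, adjusted p = 4.3e-05), and Pfkfb3 from 18.02 CPM to 1.84, 3.23 and 7.14 CPM (−1.99, SE 0.38, adjusted p = 0.00088).

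Phosphofructokinase itself is encoded by 3 genes. Pfkm, the muscle form, had 3469, 3954 and 4624 CPM in control and 1205, 1282 and 1361 CPM after repeated atrophy (−1.67, SE 0.25, adjusted p = 0.00018). Pfkl, the liver form, had 14.2, 13.8 and 18.7 CPM against 3.82 to 11.3 CPM in control, a 2.00-fold rise (1.00, adjusted p = 0.013) that missed the threshold after rescaling (0.65, adjusted p = 0.085). Pfkp, the platelet form, had 2.01, 2.66 and 2.79 CPM inside a control range of 1.43 to 4.74 CPM (−0.07, adjusted p = 0.85). Gpi, which turns glucose 6-phosphate into fructose 6-phosphate, and Aldoa, the aldolase of muscle, had log2 FC of −1.61 and −1.45 (adjusted p = 0.00029 and 0.0072), and their limbs did not overlap with control.

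In the lower part, Tpi1, Pgk1, Pgam2, Eno3 and Pkm fell, Pgam1 rose, and Gapdh and Eno1 did not pass. Eno3, muscle enolase (chr10:55370567-55375920, rn7), had 4329, 8199.7 and 13089.8 CPM in control and 2615, 1646 and 1699.8 CPM after repeated atrophy, a 4.42-fold fall (−2.14, SE 0.39, adjusted p = 0.00063). Pkm, pyruvate kinase, had 1371, 2753 and 4225 CPM in control and 644, 477 and 638 CPM (−2.22, SE 0.36, adjusted p = 0.0003). Tpi1, triose phosphate isomerase, had 1026, 1050.0 and 1031 CPM against a lowest control limb of 1309.7 CPM (−1.39, adjusted p = 0.0021). Pgk1, phosphoglycerate kinase, had a smaller fall (−0.91, adjusted p = 0.018), and its highest repeated atrophy limb of 717 CPM lay above the lowest control limb of 609.7 CPM. Pgam2, the muscle phosphoglycerate mutase, had 1046, 2309 and 4119 CPM in control and 869.9, 840.0 and 779 CPM after repeated atrophy (−1.56, SE 0.34, adjusted p = 0.0021), while Pgam1, the form of most other tissues, had 32.7, 48.4 and 51.0 CPM in control and 91.1, 83.2 and 57.8 CPM (0.74, adjusted p = 0.0071). The rise of Pgam1 did not pass after rescaling (0.36, adjusted p = 0.17). Eno1, the enolase of most tissues, had 82.1, 68.1 and 83.2 CPM inside a control range of 47.1 to 88.9 CPM (0.19, adjusted p = 0.44).

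The Gapdh row had a log2 FC of −0.89 (adjusted p = 0.056, and −1.27, adjusted p = 0.0497, after rescaling), for a gene often used as a reference in muscle, and lay below all control limbs in the 3 repeated atrophy limbs.

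Lactate dehydrogenase genes fell together. Ldha, the form that dominates fast muscle, had 1604, 2961 and 3669 CPM in control and 1185, 1159 and 1268 CPM after repeated atrophy (−1.25, adjusted p = 0.0015), and Ldhb, the form of oxidative tissue, went from a median of 47.8 CPM to 18.2, 38.1 and 25.2 CPM (−0.92, adjusted p = 0.0058). Gpd1, the cytosolic glycerol phosphate dehydrogenase that carries reducing equivalents away from glycolysis (chr7:130844138-130851530, rn7), had 169, 1231 and 1464 CPM in control and 73.2, 77.6 and 107 CPM after repeated atrophy, a 10.9-fold fall (−3.44, SE 0.57, adjusted p = 0.00031). Gpd2, its mitochondrial partner, changed far less, with 6.62, 5.11 and 7.75 CPM against 6.94 to 12.5 CPM (−0.53, adjusted p = 0.032), and did not pass in the blocked fit (−0.25, adjusted p = 0.45).

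**Figure D3:**
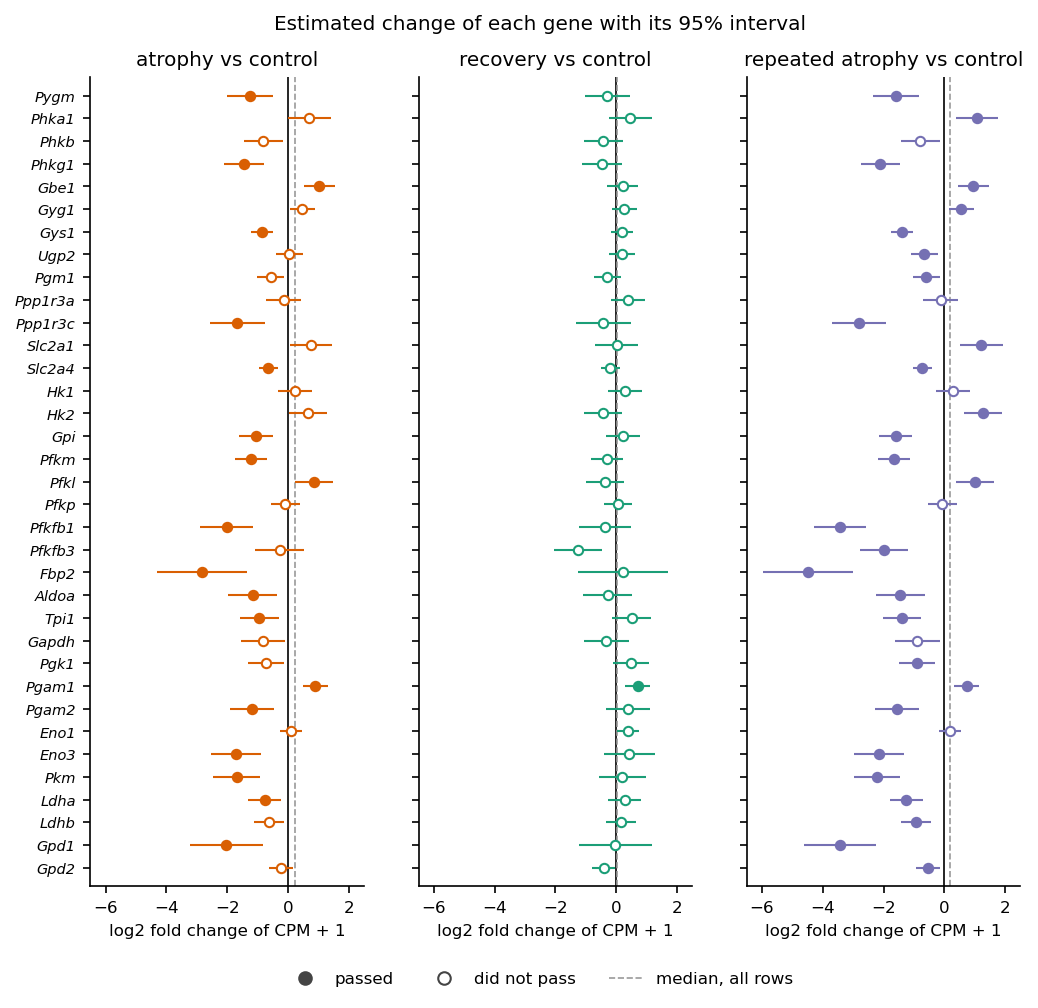
Log2 FC of CPM + 1 with its 95% interval for each of the 35 genes in atrophy, recovery and repeated atrophy against control, with filled points for genes that passed and a dashed line at the median of all rows. Falls reach −4.49 for Fbp2 after repeated atrophy, and in recovery only Pgam1 is filled.

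Initial atrophy gave changes of the same kind with a wide spread. Against control, 16 of the 35 genes fell and 3 rose, where 2.33% of all rows fell and 20.3% rose. The limbs without overlap were fewer, 5 below control (0.52% of all rows) and 1 above (4.75%), because animal 2 stayed within the control range for most genes. Fbp2 had 4.42, 84.5 and 2.60 CPM in the 3 limbs, Pfkfb1 had 8.41, 55.7 and 5.90 CPM, and Gpd1 had 167, 765 and 92.7 CPM. In each case the middle value belongs to animal 2, whose right limb held 103, 85.2 and 844 CPM of these genes. The falls of Fbp2 (−2.82, adjusted p = 0.011), Pfkfb1 (−2.01, adjusted p = 0.0070) and Gpd1 (−2.02, adjusted p = 0.019) passed all the same.

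The count of falls and rises depended on which animals entered and on the pairing. Without animal 2 of the atrophy group, 20 genes fell and 6 rose (3.85% and 30.7% of all rows). Leaving out animal 1 left 0 genes past the threshold, with 1 call over all rows. At an unadjusted p under 0.05 in limma there were then 18 of the 35 and 2867 of 13993 rows. Leaving out animal 3 gave 11 falls and 2 rises (1.25% and 11.9% of all rows). With the animal as a block none of the 35 passed, nor did any of all rows (0.0%). In that fit 24 of the 35 had an unadjusted p under 0.05, as did 2678 of 14031 rows. After rescaling, 18 fell (5.20% of all rows) and 0 rose (4.58%), and the rises of Gbe1, Pfkl and Pgam1 no longer passed.

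Within the atrophy animals, 19 genes were lower in the left limb in 3 of 3 (7.59% of all rows) and 7 were higher (25.5%). As ratios of CPM + 1, which understate changes of low genes, Pfkfb1 stood at 0.145, 0.658 and 0.152 times the own right limb, Phkg1 at 0.256, 0.894 and 0.357 times, and Gys1 at 0.443, 0.875 and 0.506 times. Hk2 stood at 1.49, 1.52 and 2.03 times and Slc2a1 at 1.48, 1.96 and 1.83 times. Neither of these last 2 genes passed against control in atrophy (adjusted p = 0.12 and 0.11), and Hk2 also stood at 1.52 times the right limb in sham animal 2.

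During recovery most of the 35 genes had values like control. Against control, 1 gene rose and 0 fell, where 4.40% and 3.33% of all rows did. At an unadjusted p under 0.05 in limma there were 4 of the 35 and 3517 of 14031 rows. After rescaling 1 rose (6.33% of all rows) and 1, Pfkfb3, fell (5.76%). The gene that rose was Pgam1, with 75.0, 78.2 and 71.0 CPM against 32.7 to 51.0 CPM in control (0.71, SE 0.20, adjusted p = 0.033, and 0.71, adjusted p = 0.023, after rescaling). With the animal as a block it had a log2 FC of 0.66 (adjusted p = 0.19). Pfkfb3 lay below all control limbs with 5.47, 6.02 and 8.85 CPM (−1.26, adjusted p = 0.051, and adjusted p = 0.033 after rescaling). Non-overlapping genes were 1 below control (4.84% of all rows) and 2 above (5.57%), the second being Phka1.

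In 10 of the 35 genes the right limbs of the recovery animals lay above the 6 other control limbs (2.82% of all rows), and in 0 they lay below them (8.07%). These were 6 of the 8 genes of the lower pathway, all but Tpi1 and Pgam1, 2 of 8 in the upper part, Gpi and Fbp2, and 2 of 4 for pyruvate and reducing equivalents, Ldha and Gpd1. No gene of glycogen breakdown, glycogen synthesis or glucose entry was among them. Eno3 had 11205, 12299 and 13089.8 CPM there, against 9193, 6470.4 and 4329 CPM in the right limbs of the atrophy animals and 8119, 8199.7 and 8148 CPM in those of the repeated atrophy animals. Pkm had 4066, 4225 and 4031 CPM there, and Gpi had 1707, 1728 and 1615 CPM. Set against their own right limbs, 17 genes were lower in 3 of 3 recovery animals (14.9% of all rows) and 6 were higher (29.8%). On the same scale of CPM + 1, Pygm stood at 0.813, 0.907 and 0.769 times the own right limb, Gpd1 at 0.691, 0.730 and 0.513 times and Pkm at 0.860, 0.826 and 0.616 times, while Pgam1 stood at 1.51, 1.52 and 1.70 times. With the animal as a block the median log2 FC of the 35 was −0.25, against 0.17 without it, and 0 of them passed (0.0641% of all rows did). In that fit 4 of the 35 had an unadjusted p under 0.05, as did 2521 of 14031 rows. The time point, the animals and the libraries cannot be told apart here.

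**Figure D4:**
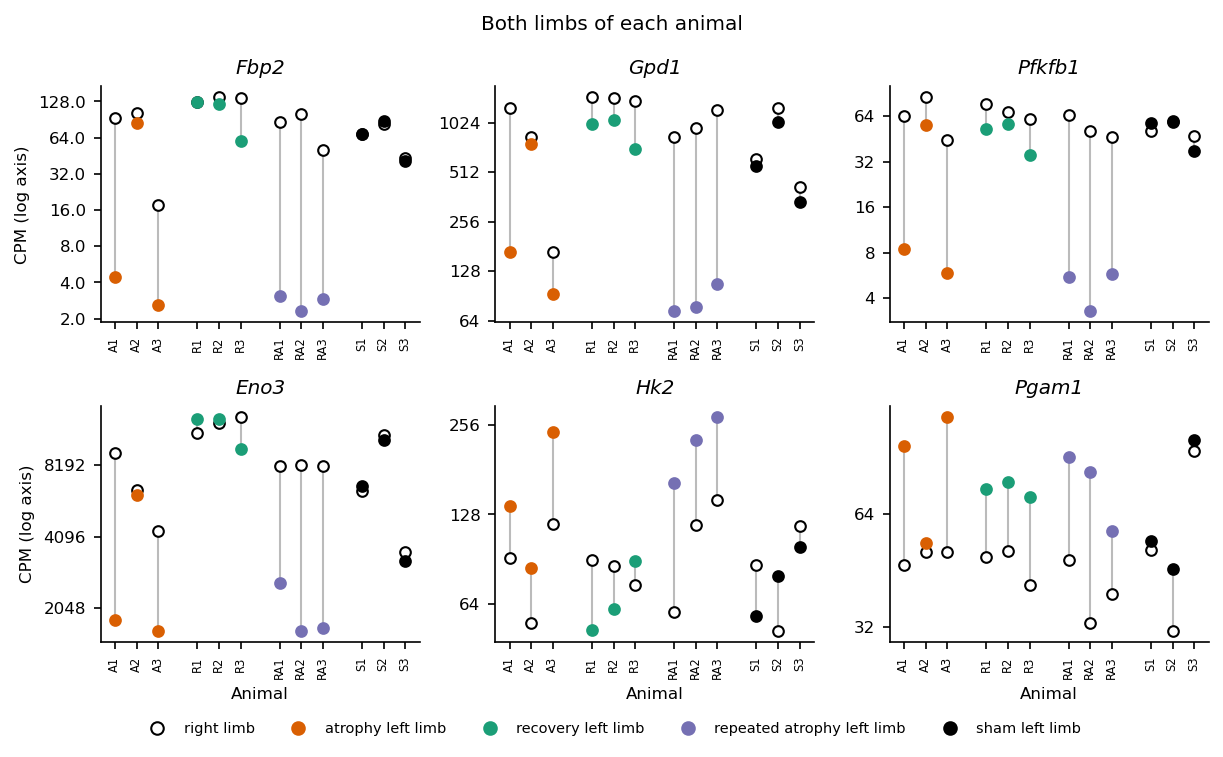
CPM on a log axis in both limbs of each of the 12 animals for 6 genes, with open circles for right limbs and filled circles for left limbs. Fbp2, Gpd1, Pfkfb1 and Eno3 fall in all 3 repeated atrophy animals and in atrophy animals 1 and 3, while Hk2 and Pgam1 are higher on the left in all 3 repeated atrophy animals.

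Direct comparisons of the treated groups place recovery apart from both TTX periods. From atrophy to recovery 11 genes rose and 2 fell, where 3.34% and 14.5% of all rows did. The largest of the 11 rises was that of Fbp2 (3.05, SE 0.86, adjusted p = 0.023), followed by Eno3 (2.14, adjusted p = 0.010) and Pkm (1.89, adjusted p = 0.011), and the falls were those of Hk2 (−1.08, adjusted p = 0.048) and Pfkl (−1.22, adjusted p = 0.028). In 10 genes all recovery limbs lay above all atrophy limbs (7.27% of all rows) and in 2 they lay below them (26.8%). After rescaling 13 rose (5.84%) and 0 fell (4.73%). Leaving out single animals changed this count from 0 (without recovery animal 2, 2.84% of all rows) to 20 (without atrophy animal 2, 26.5%). It was 1 without recovery animal 1 (3.18%), 2 without atrophy animal 1 (7.31%) and 7 without atrophy animal 3 (8.90%). With the animal as a block, where the left minus right differences of the groups are compared, 0 passed (0.0143% of all rows did). In that fit 6 of the 35 had an unadjusted p under 0.05, as did 1117 of 14031 rows.

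From recovery to repeated atrophy 18 genes fell and 3 rose, where 6.29% and 21% of all rows did. Fbp2 had a log2 FC of −4.72 (SE 0.86, adjusted p = 0.0017), Eno3 of −2.58 (adjusted p = 0.0019), Pkm of −2.42 (adjusted p = 0.0018) and Gys1 of −1.59 (adjusted p = 0.00031). The rises were those of Hk2 (1.70, adjusted p = 0.0038), Pfkl (1.37, adjusted p = 0.010) and Slc2a1 (1.19, adjusted p = 0.038). After rescaling 18 fell (11.5%) and 2 rose (10.2%). In 20 genes all repeated atrophy limbs lay below all recovery limbs (10.5% of all rows) and in 4 they lay above them (32.0%). With the animal as a block 0 passed (0.0855% of all rows did), while 18 of the 35 and 2760 of 14031 rows had an unadjusted p under 0.05.

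Between the TTX periods no gene of the 35 passed, and 0.0356% of all rows did. At an unadjusted p under 0.05 in limma there were 5 of the 35 and 884 of 14031 rows. The 5 were Pfkfb3, Pfkfb1, Ugp2, Gys1 and Ppp1r3c, all lower after repeated atrophy. Pfkfb3 had 5.23, 15.9 and 32.5 CPM after atrophy and 1.84, 3.23 and 7.14 CPM after repeated atrophy (−1.72, 95% interval from −2.71 to −0.74, adjusted p = 0.30). Pfkfb1 and Gys1 were the genes whose limbs did not overlap (4.23% of all rows lay lower in this way), with log2 FC of −1.43 (adjusted p = 0.56) and −0.56 (adjusted p = 0.63). For Fbp2 the interval ran from −3.47 to 0.14 and for Eno3 from −1.46 to 0.56. With 3 limbs against 3, intervals of this width hold differences of more than 2-fold for many of the genes.

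Ratios of paired genes within a library hardly depend on its scaling, and they were computed for 9 pairs as a description. Not all pairs set a muscle form against another form. The ratio of Pfkm to Pfkl on the log2 scale was 8.96 ± 0.36 in control (SD, n = 9). Atrophy limbs gave 6.42, 8.38 and 5.86 and repeated atrophy limbs 6.31, 6.43 and 6.11. For Eno3 to Eno1 it was 6.97 ± 0.38 in control and 4.98, 4.57 and 4.34 after repeated atrophy, and for Pgam2 to Pgam1 it was 5.73 ± 0.67 and 3.24, 3.32 and 3.73. The repeated atrophy limbs thus lay below all 9 control limbs in these pairs, as they also did for Slc2a4 to Slc2a1 and for Pfkm to Pfkp, and in atrophy the ratio of Pfkm to Pfkl was the one pair of the 9 with all limbs below control. Hk2 to Hk1 went up instead, from 3.11 ± 0.30 to 4.23, 4.21 and 3.85. Ldha to Ldhb was 5.80 ± 0.37 in control and 5.95, 4.89 and 5.60 after repeated atrophy, with limb 2 below the control range of 5.33 to 6.46. Recovery limbs had mean ratios of 9.04 for Pfkm to Pfkl, 7.02 for Eno3 to Eno1 and 5.41 for Pgam2 to Pgam1. Within the repeated atrophy animals the Gpd1 to Gpd2 ratio was lower on the left by 3.44, 3.07 and 3.35, and in the atrophy animals the left minus right difference was −2.71, 0.02 and −0.05.

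**Figure D5:**
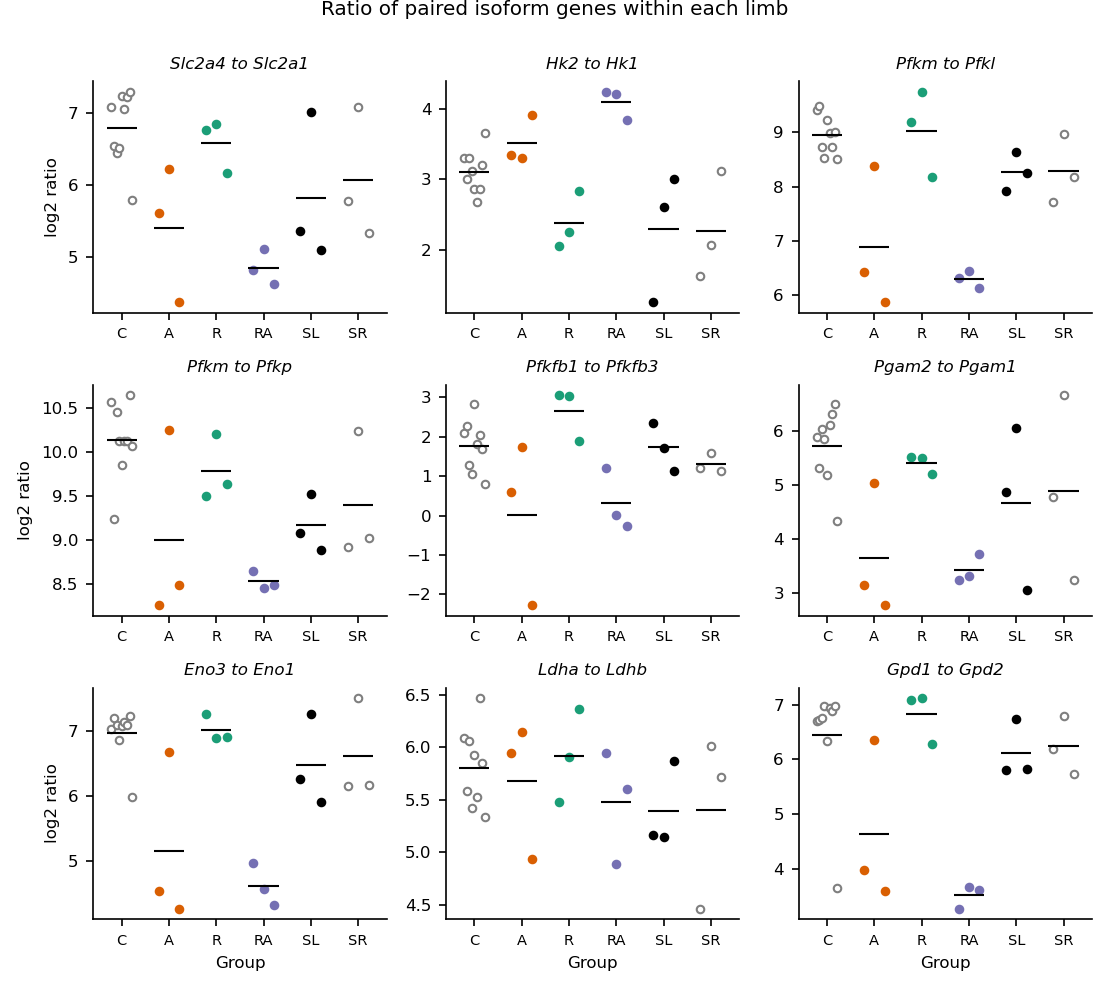
Log2 ratio of CPM + 1 of paired genes within each limb (9 panels) by group, with C for control, A atrophy, R recovery, RA repeated atrophy, SL sham left and SR sham right, and bars at group means. The repeated atrophy limbs lie below all control limbs for Pfkm to Pfkl, Pfkm to Pfkp, Eno3 to Eno1, Pgam2 to Pgam1 and Slc2a4 to Slc2a1, and above them for Hk2 to Hk1.

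The sequences before the start sites of the paired genes for phosphoglycerate mutase and enolase are shown, as examples of pairs whose members moved apart. Pfkm and Pfkl, which moved apart as well, are not shown. They are the 250 bases upstream of each start in RefSeq (GRCr8), a later build than the rn7 of the levels, and 31 of the 35 genes had an entry. Capitals mark matches on either strand to CAGCTG (an E-box of the MyoD type), TAAAAATA (a MEF2 core), CATTCCA (an MCAT element), TATAAA (the start-site box), GGGCGG (a GC box) and ACGTG (a hypoxia response core, which lies inside the CACGTG E-box). TGACCT, a nuclear receptor motif, was searched as well.
Pgam2, chr14:84897875-84898124, minus strand: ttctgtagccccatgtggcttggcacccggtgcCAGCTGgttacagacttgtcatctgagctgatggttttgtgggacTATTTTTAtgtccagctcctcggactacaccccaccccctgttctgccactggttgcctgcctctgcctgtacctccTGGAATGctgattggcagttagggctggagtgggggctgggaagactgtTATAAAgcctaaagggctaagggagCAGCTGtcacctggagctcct
Pgam1, chr1:250672902-250673151, plus strand: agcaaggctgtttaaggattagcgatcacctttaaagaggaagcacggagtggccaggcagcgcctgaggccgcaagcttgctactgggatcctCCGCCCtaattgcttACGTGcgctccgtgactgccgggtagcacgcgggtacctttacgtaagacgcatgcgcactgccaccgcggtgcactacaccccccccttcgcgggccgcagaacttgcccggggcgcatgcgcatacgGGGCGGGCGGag
Eno3, chr10:55868936-55869185, plus strand: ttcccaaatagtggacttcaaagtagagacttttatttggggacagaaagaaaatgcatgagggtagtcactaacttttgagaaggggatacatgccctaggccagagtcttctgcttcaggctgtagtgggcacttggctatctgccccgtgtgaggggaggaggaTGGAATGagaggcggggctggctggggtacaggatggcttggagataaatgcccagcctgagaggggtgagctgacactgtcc
Eno1, chr5:166002617-166002866, plus strand: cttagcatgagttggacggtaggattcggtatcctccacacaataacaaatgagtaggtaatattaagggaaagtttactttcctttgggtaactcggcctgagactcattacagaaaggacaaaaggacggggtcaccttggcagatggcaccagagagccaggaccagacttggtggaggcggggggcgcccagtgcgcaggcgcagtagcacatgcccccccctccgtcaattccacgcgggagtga

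The Pgam2 window held matches to the E-box of the MyoD type, the MEF2 core, MCAT and TATAAA, while the Pgam1 window held GC boxes and the hypoxia response core. The Eno3 window held an MCAT match, and the Eno1 window held none of the motifs searched. Of the windows not shown, that of Pfkm held the hypoxia response core and no other motif searched, and that of Pfkl held GC boxes alone. Over the genes with an entry, GGGCGG was found in 16 of 31 (51.6%, against 32.4% of 27457 rat promoter windows of the same length) and ACGTG in 12 of 31 (38.7%, against 16.9%). CAGCTG was found in 5 (16.1%, against 11.9%), CACGTG in 4 (12.9%, against 5.79%), TATAAA in 4 (12.9%, against 13.1%), CATTCCA in 2 (6.45%, against 3.43%), and TAAAAATA (3.23%, against 2.51%) and TGACCT (3.23%, against 13.7%) in 1 each. The windows of these genes also had a median GC content of 60.4% against 52% overall. A match in these letters is a description and not a binding site.

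Other genes of the pathway moved in both directions in repeated atrophy. Of 57 tested, 13 rose and 13 fell, beside the 28.1% and 6.24% of all rows given above, and after rescaling 5 rose and 14 fell (13.2% and 12.0%). Among glycogen genes, Stbd1, which binds glycogen, rose from 348 ± 99.3 CPM in control (SD, n = 9) to 810 ± 189 CPM after repeated atrophy (n = 3, 1.25, adjusted p = 0.0022). Epm2a, a glycogen phosphatase, fell from 2.96 ± 0.33 to 1.41 ± 0.33 CPM (−0.72, adjusted p = 0.0024). Slc37a4, the glucose 6-phosphate transporter of the endoplasmic reticulum, fell (−1.68, adjusted p = 0.0019) and G6pc3, a glucose 6-phosphatase, rose (1.04, adjusted p = 0.00045).

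Of 21 genes that control glucose use, 7 rose and 5 fell after repeated atrophy (28.1% and 6.24% of all rows), and 2 rose and 6 fell after rescaling (13.2% and 12.0%). The largest changes among them include subunits of AMP-activated kinase, the energy sensor of the fibre. Prkaa1 rose from 21.5 ± 5.37 to 61.2 ± 23.1 CPM (1.43, adjusted p = 0.00085) and Prkag3, the gamma subunit of fast muscle, from 87.9 ± 30.04 to 327 ± 138 CPM (1.86, adjusted p = 0.0017). Prkaa2 fell from 5.59 ± 1.51 to 2.34 ± 0.91 CPM (−0.99, adjusted p = 0.0024) and Irs1, the insulin receptor substrate, from 5.02 ± 0.72 to 1.72 ± 0.42 CPM (−1.15, adjusted p = 0.00024). In the pentose phosphate pathway, which draws on glucose 6-phosphate, 4 of 7 genes rose and 0 fell (28.1% and 6.24% of all rows), and 2 rose after rescaling (13.2%). Taldo1 rose from 41.4 ± 4.98 to 105 ± 9.00 CPM (1.33, adjusted p = 8.1e-05) and Pgd from 34.9 ± 10.8 to 76.0 ± 16.3 CPM (1.13, adjusted p = 0.0011).

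Fibre type genes were measured beside the 35. The summed CPM of 12 fast fibre genes ranged from 185689 to 231921 in control, was 104734 to 134946 after repeated atrophy, and 81746 to 198753 after atrophy, where 198753 belongs to animal 2. After repeated atrophy 4 of the 12 fell and 0 rose (6.24% and 28.1% of all rows), among them Actn3 (−2.06, adjusted p = 0.0036) and Mybpc2 (−2.04, adjusted p = 0.00075), and 4 of 10 slow fibre genes fell and 0 rose, among them Myl3 (−2.43, adjusted p = 9.8e-06) and Myh7 (−2.34, adjusted p = 0.00014). All 8 muscle fibre markers were present, with sums of 71967 to 112697 CPM in control and 62890 to 77869 CPM after repeated atrophy. Fibroblast markers summed to 1025 to 1928 CPM in recovery against 195 to 534 CPM in control (4 of 6 rose, where 4.40% of all rows did), and leukocyte markers to 61.6 to 124 CPM against 20.3 to 80.8 CPM (3 of 6 rose). In repeated atrophy 0 of 6 markers passed for each of fibroblasts, leukocytes, adipocytes and Schwann cells, 0 of 5 for red cells, and 1 of 6 endothelial markers fell. Adipocyte markers summed to 91.8 to 182 CPM in control, and Lep was at or near 0 in most limbs. The part of fibre types or other cells in the changes of the 35 genes was not tested.

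Sham surgery gave no gene past the threshold against control among the 35, nor any among the 13822 rows tested (0.0%). Over all rows this count was 118 without sham animal 2 and 8 without sham animal 3, with none of the 35 among them. At an unadjusted p under 0.05 in limma there were 5 of the 35 and 1904 of all rows, and the median log2 FC of the 35 was −0.24 against 0.17 for all rows. No gene of the 35 had all sham left limbs below or above control, where 0.0855% and 1.75% of all rows did. Within sham animals 7 genes were lower on the left in 3 of 3 (8.97%) and 1 was higher (14.5%). Sham animal 3 was low in both limbs for several genes, with 336 and 418 CPM of Gpd1, 3228 and 3545 CPM of Eno3 and 846 and 900.3 CPM of Pgam2 on the left and right.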

How the data were processed

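RNA from the TA of 12 aged rats, both limbs, was analysed from 24 of 27 value columns, and 3 columns that match no sample were not used. The authors removed contaminant reads with Bowtie2 2.2.5, aligned to rn7 with STAR and used Partek Flow, with the annotation and counting step not given in the sources used here. The values the authors deposited were read as CPM, since each column sums to 1000000, although the methods name the median of ratios of DESeq2 for normalization. Of low values, 87.9% to 89.6% per library were whole multiples of 1 step (tolerance 0.02), so reads were not treated as recovered and no count test was run. The step gave the depth.

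Of 14271 rows, 28 duplicates were dropped, and a symbol with several rows is represented by the row of highest mean. Rows above 0 in at least 3 samples were fitted with limma 3.58.1 (R 4.3.3) on log2(CPM + 1) with an intensity trend, 18 samples of TTX animals in 1 fit, and sham left limbs with control apart. The test was run on simulated data with known changes, where it recovered 7.46% of 1.5-fold, 62.7% of 2-fold and 100% of 4-fold changes. Of 118 calls there, 5 were false. The simulated limbs were independent with a dispersion of 0.05, so pairing and a wider spread were not covered. All 35 genes are named, and from other lists the 2 largest rises and falls past the threshold in repeated atrophy, with a mean of at least 1 CPM in either group, of which 1 is not reported here. The genes, lists and tests were chosen with earlier results of these data known.

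Limbs of an animal are paired by the labels. Their deviations from group means correlated with a mean r of 0.12 in 9 TTX animals (−0.32 to 0.53) and 0.74 in 3 sham animals. Alternatives were pseudocounts of 0.1 and 10, 2 rescalings, a stricter filter (mean of 10 CPM), all rows unfiltered, 12 right limbs, the block, no trend, leaving out each animal and, chosen after seeing the data, rows summed per symbol.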

Additional observations from a re-analysis of the deposited data

Results flagged for a closer look

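Control values were searched for a limb far from the other 8 in 45 sets of values, and chance marks about 1 in 20 such sets. All 4 that met the limit were the right limb of atrophy animal 3. It held 1559.8 CPM of Pgm1 (next limb 2049 CPM), 169 CPM of Gpd1 (next limb 838 CPM), a log2 ratio of Eno3 to Eno1 of 5.98 (next limb 6.86) and a log2 ratio of Gpd1 to Gpd2 of 3.65 (next limb 6.34). Without this animal 23 of the 35 genes fell and 7 rose in repeated atrophy against control (6.75% and 30.9% of all rows).

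For Ugp2, which makes UDP-glucose, the left limb was higher than the right in all 3 recovery animals (log2 difference 0.32 ± 0.18, SD, n = 3) and lower in all 3 repeated atrophy animals (−0.65 ± 0.69). The difference of 0.97 between these groups had an adjusted p of 0.17 in the limma fit with the animal as a block, and an unadjusted p of 0.014.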

How the results depend on the processing

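When single animals were left out, the 29 genes past the threshold in repeated atrophy against control numbered between 21 and 31. The 21 came without repeated atrophy animal 2 (18.4% of all rows) and the 31 without atrophy animal 2 (37.4%). No setting moved this total of 29 by over 1.5 times. The 7 rises within it were 3 without repeated atrophy animal 2, 4 without repeated atrophy animal 3 and 2 after rescaling (14.5%, 19.7% and 13.2% of all rows), while the 22 falls were 18, 19 and 24 (3.86%, 5.60% and 12.0%). The other comparisons rested more on the setting. With the animal as a block the count went from 19 to 0 in atrophy and from 1 to 0 in recovery. It went from 13 to 0 between recovery and atrophy and from 21 to 0 between repeated atrophy and recovery. No rat gave limbs to several treated groups, so between those groups the block compares left minus right differences, another quantity than without it. The cause of the lower counts was not tested. Leaving out single animals gave 0 to 26 in atrophy (0.00715% to 34.6% of all rows) and 0 to 2 in recovery (1.32% to 10.6%). It gave 0 to 20 between recovery and atrophy (2.84% to 26.5%) and 16 to 22 between repeated atrophy and recovery (13.2% to 30.4%). Between repeated atrophy and atrophy it gave 0 to 1 (0.0% to 0.257%). In recovery, 2 genes passed under either rescaling, with a mean of at least 10 CPM and with rows summed per symbol. The 26 other pathway genes ranged from 15 (without repeated atrophy animal 2) to 26.

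After rescaling by a trimmed mean, the summed CPM of the 35 genes minus control moved from −39271.5 to −54130.3 in atrophy, from −49441.6 to −64511.0 in repeated atrophy and from −13871.2 to −27029.6 in sham left limbs. Leaving out single animals gave −53939.4 (without atrophy animal 2) to −31872.7 in atrophy. In recovery the difference of −4161.8 was −15942.7 with the animal as a block and 3976.2 without recovery animal 3. With a pseudocount of 10, 3 changes of isoform ratios shrank by more than the spread of control, those of Pfkm to Pfkl in both TTX periods and Slc2a4 to Slc2a1 in repeated atrophy. Leaving out single animals moved 8 ratio changes in atrophy, all on leaving out an atrophy animal, 2 in recovery and 0 in repeated atrophy by over 1 SD. For Pfkm to Pfkl the change was −2.79 without atrophy animal 2, −1.61 without atrophy animal 3, −0.31 without recovery animal 2 and 0.51 without recovery animal 3. No estimate of the 35 genes that passed changed its direction under any of these settings. Genes near 1 CPM are limited by depth.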
